A study of Homo sapiens with 4 samples.

Results

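FABP4 and FABP5 are 2 of the 36602 genes counted in a single-cell RNA sequencing study of OVCAR5 cells, and both were found by their symbols in the deposited feature list. They were chosen on measured values of these libraries: FABP4 because its level was high in samples with a low interferon response, and FABP5 as a comparison from the same family. The levels of FABP4 across samples, and their relation to interferon genes, are therefore descriptions without a test. FABP4 (ENSG00000170323) lies on chromosome 8 at 81478419 to 81483263 on the minus strand of GRCh38, and FABP5 (ENSG00000164687) at 81280363 to 81284777 on the plus strand. The genes are 194 kb apart, with the family members PMP2 and FABP9 between them.

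Fatty acid-binding proteins are small cytosolic carriers that hold long-chain fatty acids in a barrel-shaped pocket and move them between membranes, enzymes and nuclear receptors. FABP4 is the adipocyte form, is also found in macrophages and endothelial cells, and can deliver ligands to PPARG, a receptor that in turn activates transcription of the FABP4 gene in fat cells. FABP5 is the epidermal form, is widely expressed in epithelia and carcinomas, and can pass ligands to PPARD.

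OVCAR5 is an established human ovarian carcinoma cell line. Cultures had received supernatant from T cells grown together with tumor cells, at 6 levels: none, diluted 625, 125, 25 or 5 times, and undiluted. Each level was sampled after 2, 6, 12 and 24 h, giving 24 conditions in 1 hashed pool, in which antibodies carrying oligonucleotide tags mark the culture of origin. All cultures, including those without supernatant, grew in the same serum-containing medium, and each condition was 1 culture of 1 cell line. Which pair of tags marks which condition is not given in the labels or files, so each of the 24 tag pairs is treated as a hashtag sample named by its tags, with no dose or time, and the samples are not replicates of one another.

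The pool held 10660 cell barcodes, of which 6408 had at least 1000 genes and at most 20% mitochondrial counts, and 5298 of these (82.7%) carried a clear tag pair. Hashtag samples held 137 to 272 cells and 1863154 to 3904112 unique molecular identifiers (UMIs, a count of captured RNA molecules). Cells of HTO3/HTO9 were the shallowest, with a median of 9389 UMIs, and the richest in mitochondrial counts, with a median of 13.8%. The 8 epithelial markers were all detected, with a summed level of 1889 to 3737 CPM (counts in each 1e+06 UMIs). Markers of cell types that could bring FABP4 with them were low: the summed adipocyte list ran from 0.797 to 5.27 CPM, with ADIPOQ and LPL at 0 counts. The macrophage list ran from 21.3 to 55.7 CPM, mostly from CD68, with C1QA, C1QB and CD163 at 0, and the endothelial list from 24.7 to 46.7 CPM, mostly from EGFL7, with VWF, KDR, CLDN5 and TEK at 0. In HTO4/HTO8 and HTO2/HTO9, where FABP4 was highest, the adipocyte list stood at 3.78 and 3.67 CPM.

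FABP4 was detected in all 24 samples with 1612 UMIs in total, and 2 samples stood far above the others. HTO4/HTO8 had 118 CPM (281 UMIs, 95% Poisson interval 105 to 133) and HTO2/HTO9 had 96.1 CPM (314 UMIs, 85.8 to 107). The next were HTO7/HTO9 at 28.7, HTO8/HTO9 at 27.5, HTO5/HTO10 at 24.3, HTO2/HTO8 at 23.1, HTO1/HTO9 at 22.2, HTO6/HTO10 at 21.7 and HTO1/HTO8 at 21.3 CPM. These 7 samples lay close together, and the drop from HTO2/HTO9 to HTO7/HTO9 was the only step between neighbours in the order at which the counting intervals did not overlap. HTO1/HTO10 had 21.1, HTO3/HTO8 19.8, HTO7/HTO8 17.2, HTO7/HTO10 17.0, HTO6/HTO8 12.4, HTO4/HTO10 12.0, HTO9/HTO10 11.4 and HTO3/HTO10 11.2 CPM. The lowest 7 were HTO8/HTO10 at 9.60, HTO2/HTO10 at 9.53, HTO5/HTO8 at 7.84, HTO6/HTO9 at 7.61, HTO3/HTO9 at 5.97, HTO5/HTO9 at 2.13 and HTO4/HTO9 at 1.33 CPM (4 UMIs, 0.363 to 3.41). The median was 17.1 CPM. The highest sample was 88.5 times the lowest (95% interval 34.2 to 327), an interval that is wide because the low end rests on 4 UMIs. The ratio was 209.6 when tag pairs had to be clear by a margin of 10, 52.3 with no filter on barcodes and 55.5 without HTO4/HTO9. In this pooled 3′ assay, fewer cells with FABP4 and less FABP4 RNA in each cell cannot be told apart from the sample sums alone.

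**Figure D1:**
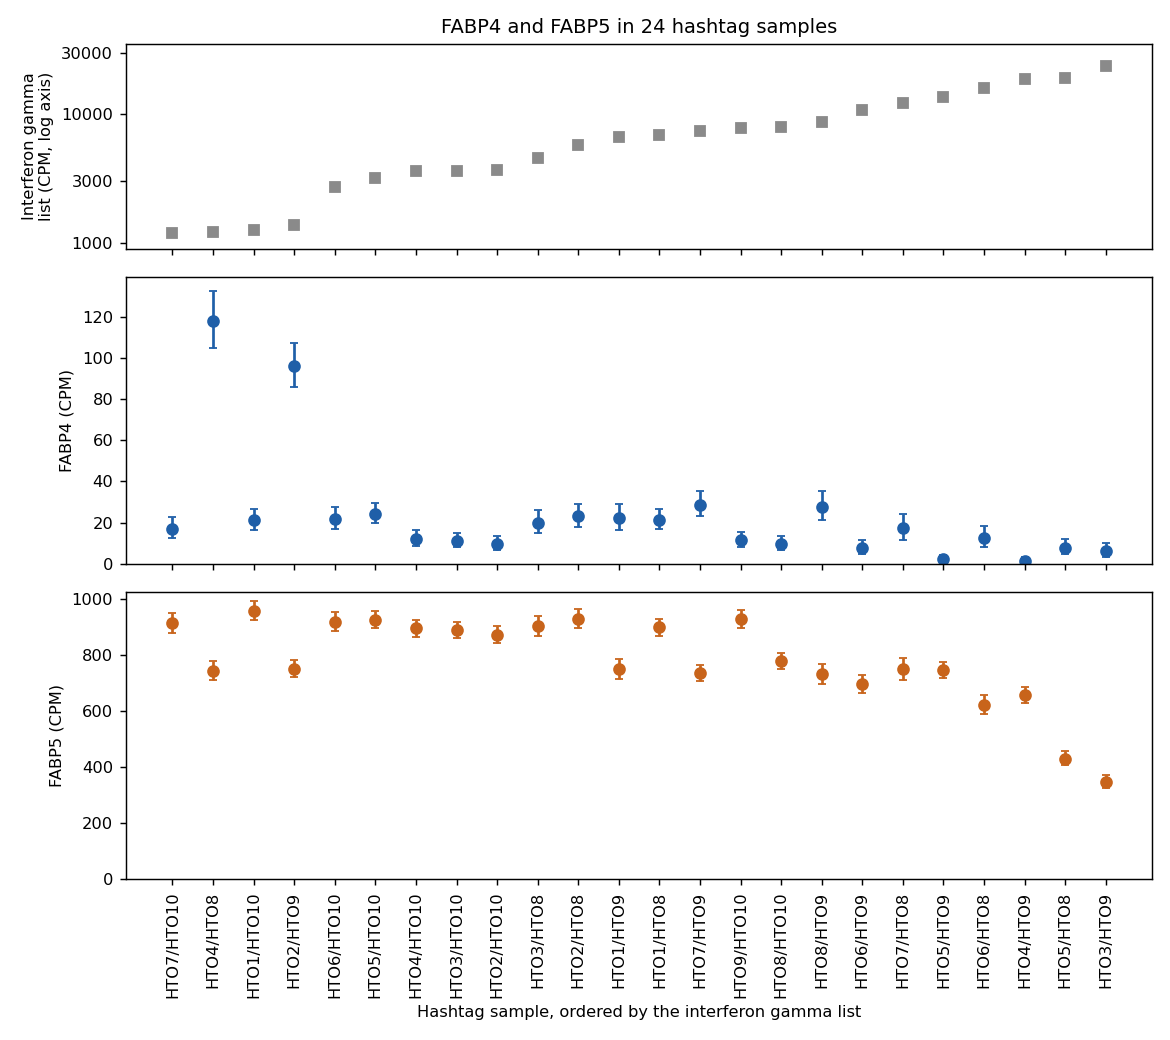
Summed interferon gamma list (top, CPM on a log axis), FABP4 (middle, CPM) and FABP5 (bottom, CPM) in 24 hashtag samples ordered by the interferon gamma list. Points are sample values and bars are 95% Poisson intervals, shown for the 2 genes. FABP4 reached 118 and 96.1 CPM in HTO4/HTO8 and HTO2/HTO9 and stayed at or below 28.7 CPM elsewhere, while FABP5 was lowest in the 2 samples with the highest interferon gamma list.

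The description that FABP4 is high where the interferon response is lowest held for only some of the samples. Over a list of 33 interferon gamma response genes, 4 samples stood lowest: HTO7/HTO10 at 1201, HTO4/HTO8 at 1219, HTO1/HTO10 at 1262 and HTO2/HTO9 at 1376 CPM, with the next sample at 2738 CPM. FABP4 was at 118 and 96.1 CPM in HTO4/HTO8 and HTO2/HTO9, but at 21.1 and 17.0 CPM in HTO1/HTO10 and HTO7/HTO10, close to the median of all samples. HTO4/HTO8 exceeded HTO7/HTO10 in FABP4 by a ratio of 6.93 (5.10 to 9.60), and HTO2/HTO9 exceeded HTO1/HTO10 by a ratio of 4.55 (3.49 to 5.99). The gap was narrower between HTO2/HTO9 and HTO1/HTO10 in cells with at least 2000 genes and at most 10% mitochondrial counts. There HTO4/HTO8 had 81.8 and HTO2/HTO9 50.8 CPM, with HTO1/HTO10 next in the order of all samples at 23.9 CPM and HTO7/HTO10 at 11.2 CPM. FABP5 did not share this split: it was at 743 and 750 CPM in HTO4/HTO8 and HTO2/HTO9, against 957 and 913 CPM in HTO1/HTO10 and HTO7/HTO10. At the other end, the 5 samples with the highest interferon gamma list had 1.33 to 12.4 CPM of FABP4.

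Across all 24 samples, Spearman's rho of FABP4 with the interferon gamma list was -0.59, and Pearson's r on log2(CPM + 10) was -0.67. Among the 5767 genes that averaged 20 CPM or more, 29.3% had a rho with this list as low as that of FABP4. With the summed level of 22 NF-kB target genes, which respond to inflammatory cytokines, the rho of FABP4 was -0.71, and 3.43% of genes had one as low. With the S-phase list the rho of FABP4 was 0.64, and 10.6% of genes had one as high. These relations are descriptions over samples that come from 1 pool and share doses and exposure times by design.

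FABP5, the epidermal form, was detected with 58237 UMIs and varied far less. HTO1/HTO10 was highest at 957 CPM (923 to 991), followed by HTO9/HTO10 at 929, HTO2/HTO8 at 928, HTO5/HTO10 at 926, HTO6/HTO10 at 918, HTO7/HTO10 at 913, HTO3/HTO8 at 903, HTO1/HTO8 at 898, HTO4/HTO10 at 894, HTO3/HTO10 at 888 and HTO2/HTO10 at 872 CPM. Intervals of neighbouring samples overlapped throughout these 11, and a step separated them from HTO8/HTO10 at 779 CPM. Below it came HTO2/HTO9 at 750, HTO1/HTO9 at 748, HTO7/HTO8 at 748, HTO5/HTO9 at 745, HTO4/HTO8 at 743, HTO7/HTO9 at 735, HTO8/HTO9 at 730, HTO6/HTO9 at 696, HTO4/HTO9 at 655 and HTO6/HTO8 at 621 CPM. HTO5/HTO8 at 429 and HTO3/HTO9 at 346 CPM (323 to 370) each stood apart from the sample above them. The ratio of highest to lowest was 2.77 (2.56 to 2.98), and 2.23 without HTO3/HTO9. Of cells with at least 2000 genes and at most 10% mitochondrial counts the ratio was 2.08, with 30 such cells left in HTO3/HTO9.

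The rho of FABP5 over the 24 samples was 0.81 with the median UMIs per cell, and 2.03% of genes had one as high. It was -0.82 with the median mitochondrial share (4.25% of genes as low) and 0.88 with the summed level of 36 G2/M-phase genes (1.72% as high). With the interferon gamma list it was -0.70, a value that 17.6% of genes had or fell below. The part of depth and mitochondrial share in the sample levels of FABP5 was not tested. FABP4 had weaker relations with depth and mitochondrial share, with a rho of 0.27 and -0.40. FABP4 and FABP5 ranked the samples differently, with a rho of 0.32 between them.

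On the range of log2(CPM + 10) from the lowest to the highest sample, FABP4 spanned 3.50, the 55th widest of 5767 genes, and FABP5 spanned 1.44, the 562nd. Ranges of 2-fold or more were found in 26.1% of all genes tested and ranges of 4-fold or more in 4.13%. FABP4 passed both and FABP5 only the first. The range was part of why FABP4 was chosen, so its place in this order is no finding.

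The samples were also divided by whether they carried the tag HTO10, a division chosen after the values had been seen, and no source says what HTO10 stands for. The ranges of both genes overlapped between the sets, and the difference between the sets was not tested. In the 9 samples with HTO10, FABP4 ran from 9.53 to 24.3 CPM with a median of 12.0, against 1.33 to 118 CPM with a median of 19.8 in the 15 samples without it. FABP5 ran from 779 to 957 CPM with HTO10, against 346 to 928 CPM without it. Both samples with high FABP4 lacked HTO10, whereas the 2 samples with an equally low interferon gamma list and FABP4 near the median carried it. Within each set FABP4 was lower where the interferon gamma list was higher: rho was -0.75 with HTO10 (n = 9) and -0.82 without it (n = 15). This relation was used to choose FABP4 and the division was made with the values in view, so these rhos lend it no support. The share of genes with a rho as low was not counted within the sets. For FABP5 the within-set rho was -0.52 with HTO10 and -0.79 without it. The rho of FABP5 with the median UMIs per cell was 0.20 with HTO10 and 0.91 without it, and with the G2/M list 0.53 and 0.88. The rho between FABP4 and FABP5 was 0.73 with HTO10 and 0.49 without it, against 0.32 over all samples. Leaving out the 2 samples of each set farthest from its median FABP5 gave 0.64 and 0.35. Leaving out the 2 farthest from its median FABP4 gave 0.86 and 0.54. Because the division was made with the values in view, these rhos lend no support to a closer link inside the sets. The interferon gamma list itself reached 7988 CPM with HTO10 and 23590 CPM without it, and the median mitochondrial share of a sample reached 10.8% and 13.8%.

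**Figure D2:**
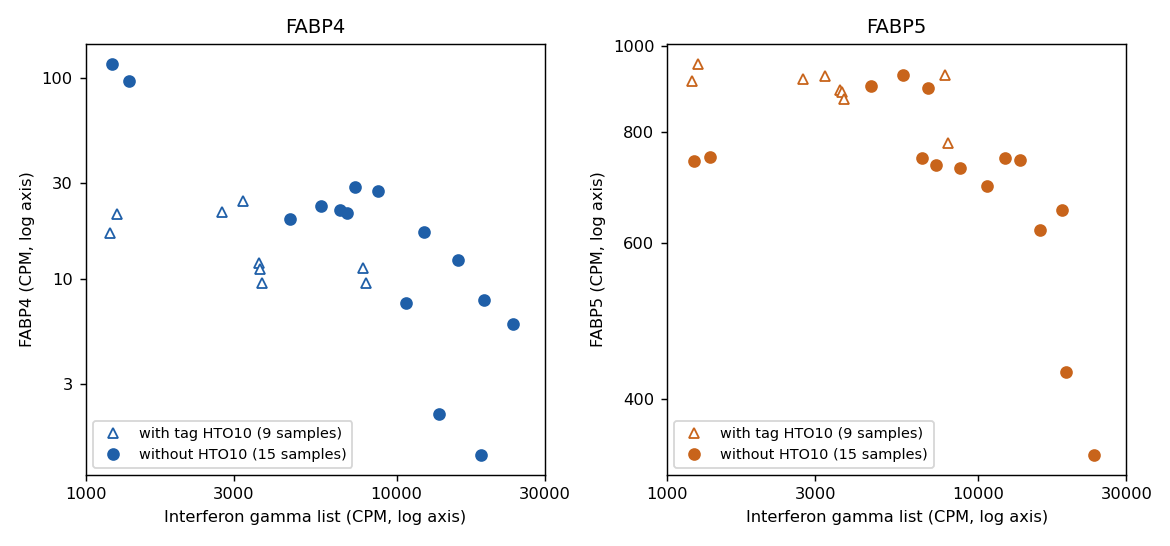
FABP4 (left) and FABP5 (right) against the summed interferon gamma list, all in CPM on log axes, 1 point per hashtag sample. Open triangles are the 9 samples with tag HTO10 and filled circles the 15 without it. Of the 4 samples with the lowest interferon gamma list, the 2 circles had 118 and 96.1 CPM of FABP4 and the 2 triangles 21.1 and 17.0 CPM.

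In single cells, FABP4 UMIs were found in a minority and FABP5 UMIs in nearly all. At these depths a cell without a FABP4 UMI may still express the gene. A FABP4 UMI was found in 542 of 5298 cells (10.2%) and a FABP5 UMI in 98.4%, and the median cell held 0 UMIs of FABP4 and 10 of FABP5. After thinning each cell to 3000 UMIs to hold depth equal, FABP4 was found in 4.52% of 5261 cells and FABP5 in 86.4%. The thinned share with FABP4 was highest in HTO4/HTO8 at 16.5% (27 of its cells, 95% binomial interval 11.1 to 23.0) and HTO2/HTO9 at 13.1% (9.15 to 18.0). No other sample exceeded 6.69%, and the lowest was HTO4/HTO9 at 0.441% (0.0112 to 2.43). The order of samples by share thus began and ended as the order by CPM did. Cells without any FABP4 UMI remained the majority in HTO4/HTO8 too: before thinning, 44 of its 165 cells (26.7%) had one.

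Among cells that did hold FABP4, the UMIs were unevenly divided. The 68 cells richest in FABP4 held as many of its UMIs as all other cells together, 93 cells with 5 or more UMIs held 57.8% of them, and 294 cells held a single UMI. HTO4/HTO8 had 22 cells with 5 or more FABP4 UMIs and HTO2/HTO9 had 18, against at most 7 in any other sample. One HTO2/HTO9 cell held 85 UMIs, without which that sample had 70.4 CPM rather than 96.1. HTO4/HTO8 without its top cell had 105 CPM, and the order of these 2 samples was kept. The variance of FABP4 counts between cells was 11.3 times that of Poisson sampling at the cells' depths, rank 27 of 10039 genes detected in at least 5% of cells, and 2.90% of the excess lay between samples. Without the top cell of each sample the ratio was 5.64. For FABP5 the ratio was 2.64, with 20.9% of the excess between samples. A ratio of 1.5 or more was found in 8.05% of the genes examined.

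**Figure D3:**
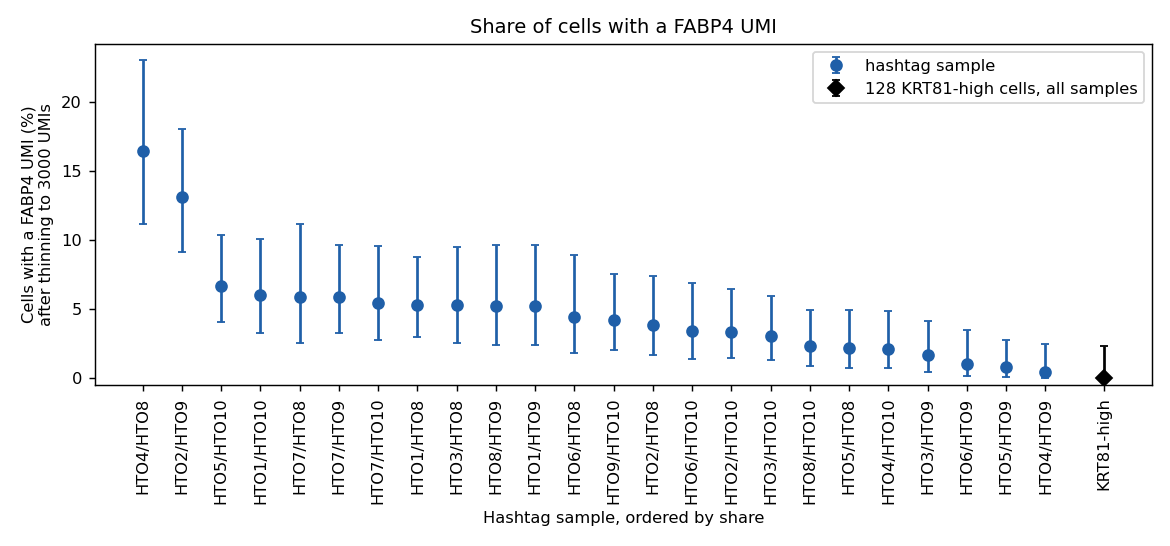
Share of cells with at least 1 FABP4 UMI after thinning every cell to 3000 UMIs, in percent, for 24 hashtag samples ordered by share and for the 128 cells with 10 or more KRT81 UMIs taken from all samples. Bars are 95% exact binomial intervals, and for the KRT81-high cells, where the share was 0, the limit of 2.34% that a count of 0 allows. HTO4/HTO8 and HTO2/HTO9 stood at 16.5% and 13.1% and the rest at or below 6.69%.

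A small population of cells nearly lacked FABP4 and was rich in FABP5. It was defined after the data had been seen as the 128 cells with 10 or more UMIs of KRT81, a hair-type keratin gene, and between 0 and 10 of them were found in each sample. These KRT81-high cells held 1 FABP4 UMI in all (0.430 CPM, 0.0109 to 2.39), whereas the other 5170 cells held 22.8 CPM. At the level of the other cells of the same samples, 48.0 FABP4 UMIs would have stood in the place of that 1. A FABP4 UMI was found in 0.781% of KRT81-high cells and in 10.5% of the others, although the KRT81-high cells were deeper, with a median of 17991 against 13152 UMIs. After thinning, 0 of the 128 had one, which allows a share of up to 2.34% (3 counts of 128). FABP5 stood at 1331 CPM in KRT81-high cells and 779 CPM in the others, a ratio of 1.71 over the pool, without matching samples (1.65 to 1.77). KRT81-high cells held 3097 FABP5 UMIs, against 1875 at the level of the other cells of the same samples. FABP5 was higher in KRT81-high cells in 20 of the 20 samples with at least 3 such cells. There it ran from 993 to 1633 CPM, against 634 to 942 CPM in the other cells. Of all genes tested, 7.51% were higher in 20 of 20 samples.

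Counted per cell rather than per UMI, KRT81-high cells held 0.00781 FABP4 UMIs each (0.000198 to 0.0435). The intervals of 3 samples overlapped this one: HTO4/HTO9 at 0.0175 UMIs per cell, HTO5/HTO9 at 0.0303 and HTO3/HTO9 at 0.0610. Per UMI, the interval of HTO3/HTO9 (5.97 CPM, 3.34 to 9.85) lay above that of KRT81-high cells, which ended at 2.39 CPM. The intervals of HTO4/HTO9 (0.363 to 3.41 CPM) and HTO5/HTO9 (0.918 to 4.19 CPM) overlapped it. Overlap of intervals does not show that the levels are equal. The part of free RNA in the FABP4 counts was not tested.

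Within each sample, cells were then divided at the median of their UMIs of the interferon gamma list after thinning, into upper and lower cells, a relation that had not been used to choose the genes. For FABP4, no relation with the list was detected within samples. FABP4 had 204 UMIs (25.9 CPM) in the upper cells and 187 (23.7 CPM) in the lower cells, a ratio of 1.09 (0.893 to 1.34). It was higher in the upper cells in 12 samples, higher in the lower cells in 11 and tied in 1. The ratio of upper over lower cells was 1.02 when divided by NF-kB targets (0.831 to 1.25), 0.949 for G2/M genes (0.774 to 1.16) and 0.968 for S-phase genes (0.790 to 1.19). All 4 intervals include 1, and a difference within them was not detectable at this depth. The relation of FABP4 with the interferon gamma list across samples was thus not detected between cells of the same sample. The list had a median of 8881 CPM in the upper and 4534 CPM in the lower cells, against 1201 to 23590 CPM across samples. The FABP4 interval overlaps that of FABP5 given below (0.857 to 0.920), so the 2 genes are not shown to differ here.

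FABP5 ran against the list within samples. Its level was 734 CPM in the upper cells by the interferon gamma list and 826 CPM in the lower cells, a ratio of 0.888 (0.857 to 0.920), and FABP5 was higher in the lower cells in 24 of 24 samples. Of 5739 genes tested outside the list, 1.46% were higher in the lower cells in 20 or more samples, and FABP5 was the only one for which this held in all 24. A count of this kind is easier to reach for a gene with many UMIs: of the 340 genes that averaged 400 CPM or more, 13.5% passed 20 samples. With levels taken from all UMIs of the same cells in place of thinned ones, FABP5 was higher in the lower cells in 23 samples. The median mitochondrial share was 10.6% in the upper and 10.4% in the lower cells, and the median depth 13208 and 13268 UMIs.

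**Figure D4:**
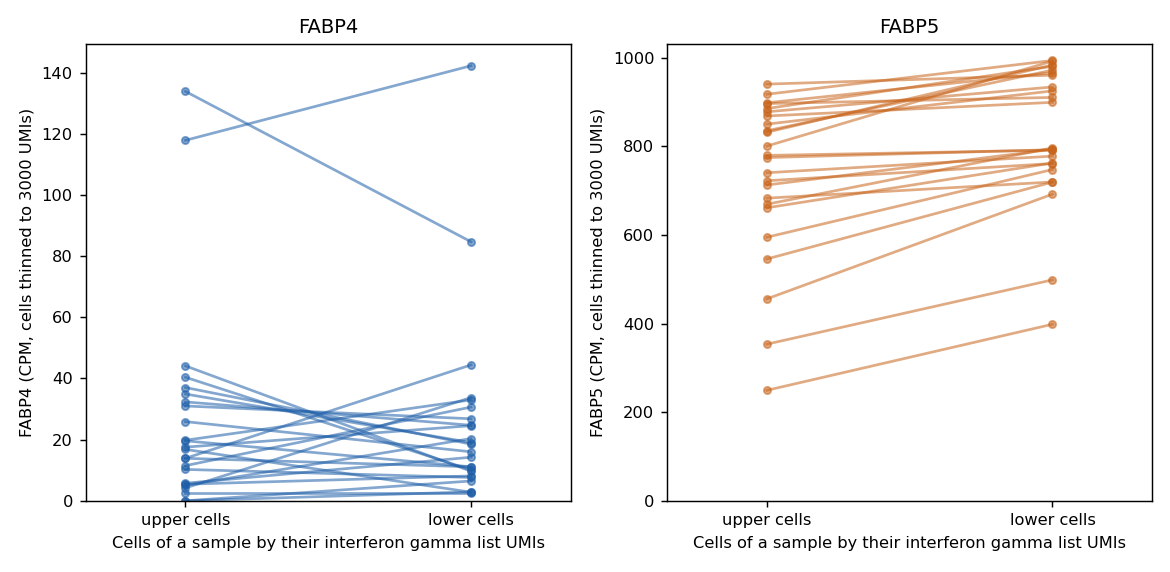
FABP4 (left) and FABP5 (right) in CPM in the upper and lower cells of each hashtag sample, divided at the median of their UMIs of the interferon gamma list after thinning to 3000 UMIs. Each line joins the upper and lower cells of 1 sample. All 24 FABP5 lines run upward to the lower cells, while FABP4 was higher in the upper cells in 12 samples and in the lower cells in 11.

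FABP5 was also lower in the upper cells by NF-kB targets, at 736 CPM against 824 CPM in the lower cells (ratio 0.893, 0.862 to 0.926), with the lower cells higher in 20 of 24 samples, a count reached by 0.47% of genes. That count was 17 after thinning to 5000 UMIs and 19 with levels from all UMIs. For the division by G2/M genes FABP5 was higher in the lower cells in 15 samples (ratio 0.955, 0.922 to 0.990), short of the 20 that 1.74% of genes reached, but in 20 with levels from all UMIs. For S-phase genes FABP5 was higher in the upper cells in 18 samples (ratio 1.07, 1.04 to 1.11), also short of the 20 that 1.88% of genes reached, but in 21 after thinning to 5000 UMIs and 20 with levels from all UMIs. Across samples the rho of FABP5 with the G2/M list was 0.88, but within samples FABP5 was not higher in the cells rich in that list.

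Dividing the cells of each sample at the median of their mitochondrial share, an analysis added after the data had been seen, set the 2 genes apart in opposite directions. Levels were taken here per 1e+06 non-mitochondrial UMIs. FABP4 stood at 35.0 CPM in the upper cells (median share 12.7%) and 15.9 CPM in the lower cells (8.56%), a ratio of 2.20 (1.99 to 2.44), and was higher in the upper cells in 18 samples. With all cells 5.68% of genes reached 20 samples, which FABP4 did not. Without the top FABP4 cell of each sample the ratio was 1.89 (1.69 to 2.12) and FABP4 was higher in the upper cells in 21 samples. The share of genes that reach 20 in that setting was not counted. FABP5 stood at 838 CPM in the upper cells and 932 CPM in the lower cells, a ratio of 0.899 (0.885 to 0.914), with the lower cells higher in 23 samples, and 6.08% of genes reached 20. Pooled FABP4 was thus higher in cells with a larger mitochondrial share within samples, but across samples its rho with the median share was -0.40. Over the pool, without matching samples, the median share was 10.50% in 449 cells with 1 to 4 FABP4 UMIs. It was 10.48% in 4756 cells without one and 11.02% in the 93 cells with 5 or more. The difference in pooled FABP4 is therefore not shown to be a trait of most cells with FABP4. Its intervals cover counting error only, and FABP4 counts varied between cells 11.3 times as much as Poisson sampling. When the cells of each sample were divided by depth, pooled FABP4 was lower in the deeper cells, at 19.6 CPM against 33.1 CPM (ratio 0.592, 0.536 to 0.654). The shallower cells were higher in 17 samples and the deeper cells in 7. FABP5 was nearly level, at 895 CPM in the deeper and 880 CPM in the shallower cells. The share of all genes was not counted for this division, nor was it repeated without the top cells.

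Cells with a FABP4 UMI after thinning (238 cells) were set beside cells without one, weighted to the same mix of samples. Their summed fatty acid uptake and activation list, which includes the caveolar gene CAV1, had a ratio of 1.15 (1.06 to 1.24), and the PPAR target list a ratio of 1.11 (1.01 to 1.22). FABP5 had a ratio of 1.07 with an interval that included 1 (0.989 to 1.16), the interferon gamma list 0.998 (0.967 to 1.03) and the G2/M list 0.954 (0.925 to 0.984). KRT81 was at 0.0717 (0.0263 to 0.156), with 6 UMIs in the cells with FABP4 against 83.6 at the level of the cells without it. The KRT81 value repeats from the other side the near absence of FABP4 in KRT81-high cells and is no separate observation. These intervals cover counting error only, and 14 gene sets or genes were compared in this way.

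No other fatty acid-binding protein approached a level at which its variation over samples could be described. FABP6, the ileal bile acid carrier, had 82 UMIs in all samples together, FABP3, the heart form, had 2, and FABP1, the liver form, had 1. FABP2, FABP7, FABP12 and, from the stretch between FABP5 and FABP4, PMP2 and FABP9 had 0 counts, which allows up to 0.0410 CPM over the pool. Among the relatives that bind retinoids, CRABP2, a retinoic acid carrier, had 6.35 CPM over the pool. FABP5 has 13 annotated pseudogenes in GENCODE 29, of which 0 are among the counted features, and how reads shared with them were handled is not given in the sources used here, so the FABP5 level carries that uncertainty.

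Other genes of lipid handling were described from lists written with earlier results of these data known. Of 45 such genes that averaged 20 CPM or more, FABP4 and FABP5 aside, 15 ranged by 2-fold or more over the samples and 4 by 4-fold or more, beside the 26.1% and 4.13% of all genes. Their median log2 range was 0.84, against 0.74 for all genes tested. FABP4, at 3.50, ranged more widely than each of the 45, although 1 of them was wider with TMM or median-of-ratios scaling and 4 with a pseudocount of 50 CPM, where FABP4 spanned 1.71. Because FABP4 was chosen in part for its range, its place among these genes is no finding. The receptor gene PPARG, whose product FABP4 can supply with ligand, was highest in HTO2/HTO9 at 68.6 CPM and stood at 56.7 CPM in HTO4/HTO8, but also at 55.5 and 52.4 CPM in HTO1/HTO10 and HTO7/HTO10, where FABP4 was not high. PPARG was lowest in HTO5/HTO8 at 24.3 CPM, and its rho was 0.57 with FABP4 and 0.49 with FABP5. CEBPD and CEBPB, transcription factors of early adipocyte differentiation, went the other way, with a rho of -0.64 each with FABP4. Both were lowest in HTO7/HTO10, CEBPD at 23.3 CPM and CEBPB at 43.8 CPM. CEBPD was highest in HTO2/HTO10 at 294 CPM, and CEBPB in HTO3/HTO9 at 262 CPM.

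Of 7 PPAR target genes tested, 2 ranged by 2-fold or more, beside 26.1% of all genes. ANGPTL4, an inhibitor of lipoprotein lipase, was at 36.5 and 43.2 CPM in the 2 samples high in FABP4 but highest in HTO7/HTO10 at 49.3 CPM, and TXNIP, an inhibitor of thioredoxin, was highest in HTO3/HTO9 at 211 CPM, where FABP4 was at 5.97 CPM. In the uptake and activation list, CAV1 was highest in the same samples as FABP4, at 764 CPM in HTO4/HTO8 and 745 CPM in HTO2/HTO9, and lowest in HTO4/HTO9 at 291 CPM, where FABP4 was lowest too. Its rho with FABP4 was 0.56. The acyl-CoA synthetase gene ACSL5 ran against FABP5, with a rho of -0.72.

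Of 10 tested genes of fatty acid synthesis and desaturation, 6 had a higher rho with FABP5 than with FABP4, and 4, among them ELOVL6 and FADS3, the reverse. ACLY, which makes cytosolic acetyl-CoA, had a rho of 0.81 with FABP5 and 0.26 with FABP4, the desaturase gene FADS1 0.77 and 0.32, and FASN, the fatty acid synthase, 0.70 and 0.50. FASN was lowest in HTO3/HTO9 at 15.9 CPM, as FABP5 was, and 2 of the 10 ranged by 2-fold or more, beside 26.1% of all genes. Of 13 tested genes of fatty acid oxidation 1 ranged by 2-fold or more, and the median log2 range of the list was 0.64, against 0.74 for all genes. All 13 had a lower rho with FABP5 than with FABP4, and rho with FABP5 was -0.83 for DECR1, -0.81 for HADHA and -0.79 for HADHB, enzymes of the mitochondrial breakdown of fatty acids. With FABP4 the same 3 genes had a rho of -0.16, 0.02 and -0.08. ETFB, a subunit of the electron carrier of that pathway, was instead close to FABP4 (0.63) and highest in HTO4/HTO8 at 280 CPM. How many of all genes had a higher rho with FABP4 than with FABP5 was not counted. The tallies of the synthesis and oxidation lists therefore do not set these genes apart from other genes.

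Of 8 tested genes of lipid droplets and lipases, 4 ranged by 2-fold or more, beside 26.1% of all genes. G0S2, whose product inhibits the lipase PNPLA2, ran opposite to FABP4 with a rho of -0.65: it was lowest in HTO2/HTO9 at 38.6 CPM and at 44.5 CPM in HTO4/HTO8, against 514.7 CPM in HTO3/HTO9. ABHD5, the activator of the same lipase, followed FABP5 with a rho of 0.78, and was lowest in HTO3/HTO9 (5.17 CPM) and highest in HTO3/HTO8 (50.3 CPM). AGPAT2, an enzyme of glycerolipid synthesis, was highest in the samples high in FABP4, at 107 CPM in HTO2/HTO9 and 106 CPM in HTO4/HTO8, and its rho with FABP4 was 0.58.

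**Figure D5:**
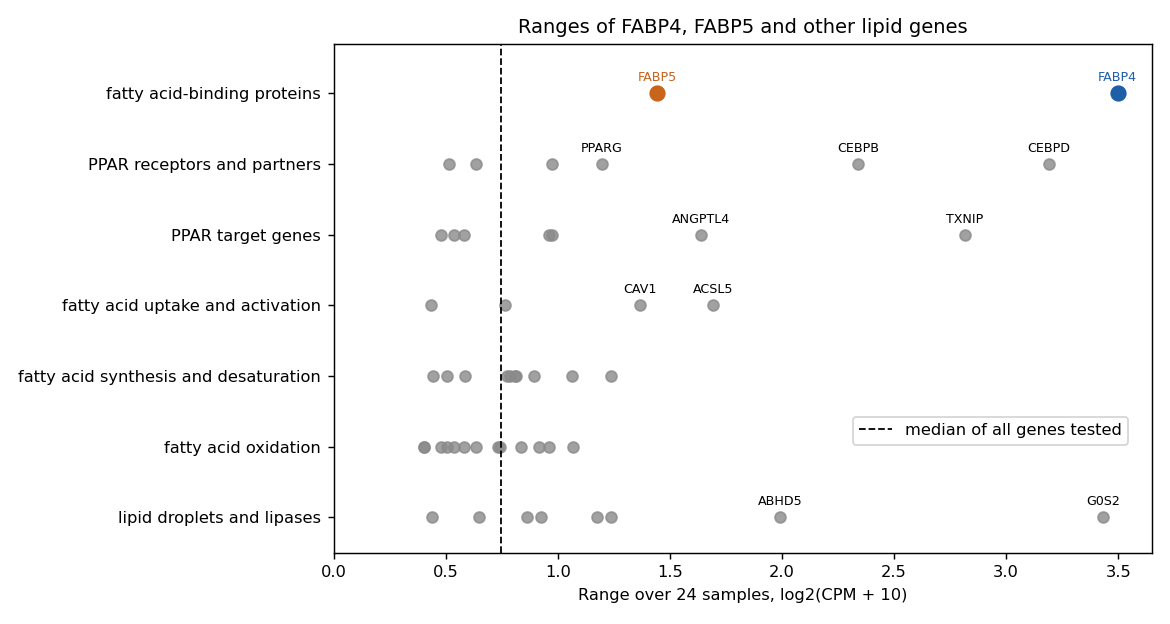
Range of log2(CPM + 10) from the lowest to the highest of 24 hashtag samples for FABP4 (blue), FABP5 (orange) and the other tested genes of 7 lipid lists (grey), with some of the genes named. The dashed line is the median of all genes tested, 0.74. FABP4 at 3.50 lies beyond G0S2 at 3.43 and CEBPD at 3.19, and FABP5 at 1.44 near CAV1 at 1.36. FABP4 was chosen in part for its range.

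The genes whose ranks over the 24 samples were most like those of FABP4 were KRT10, an intermediate filament gene, with a rho of 0.87, TMA7 (0.83), NQO1, a quinone reductase (0.80), NDUFS6, a subunit of respiratory complex I (0.79), SNF8 (0.79), NT5E, the ecto-nucleotidase CD73 (0.78), PIGX (0.77), COA3 (0.77), DGKZ (0.76) and ATP5MG (0.76). None of these shared the wide range of FABP4: KRT10 ran from 127 to 189 CPM and NQO1 from 196 to 356 CPM. The genes ranked most opposite were the complement gene C3 (-0.84), the matrix gene TNC (-0.81), BACH1 (-0.79), TRIM8 (-0.79) and C15orf48 (-0.78). C3 stood at 2.52 and 3.98 CPM in HTO4/HTO8 and HTO2/HTO9, against 51.3 CPM in HTO4/HTO9 and 79.6 CPM in HTO3/HTO9. For FABP5 the closest were ZFP91, SET, RAB21 and RAN (all 0.93), RACGAP1, TOMM20, EEF1E1, SEH1L, NOL7 and C8orf33 (all 0.92). RAN, the GTPase of nuclear transport, ran from 535 to 1052 CPM and was at 535 CPM in HTO3/HTO9, where FABP5 was lowest. Opposite to FABP5 were MOB3A and ARHGAP26 (both -0.89), CDK2AP2, EFHD2 and TNFRSF6B (all -0.88). With Pearson's r in place of rho, 3 of the 10 genes closest to FABP4 and 1 of the 10 closest to FABP5 were kept.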

How the data were processed

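Per the labels, 2 gene-expression and 2 hashing libraries of 1 pool of OVCAR5 cultures were sequenced with a droplet-based 3′ kit. The authors deposited 1 matrix of UMI counts for 36602 genes and 10 hashtags, which per the file headers came from Cell Ranger 5.0.1. Cell Ranger 2.1.1 and GRCh38 are named in the submitters' processing notes, and no annotation version or cell-calling setting is stated. The barcodes carry 1 suffix and 0 repeats.

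Cells needed 1000 genes and at most 20% mitochondrial counts. Both top tags had to reach 3 times the next one, and a pair in use had at least 100 barcodes. Doublets were not removed in any other way. Counts were summed per tag pair and divided by the total to give CPM. Intervals of 95% (exact Poisson, exact binomial, conditional binomial for ratios) cover counting error only. In Python 3.11.15 with numpy 2.4.6 and scipy 1.17.1, ranges used log2(CPM + 10) and genes averaging 20 CPM or more, and cells were thinned to 3000 UMIs. No p-value was computed, because conditions could not be assigned. Scaling factors from edgeR 4.0.16 and DESeq2 1.42.0 served as alternatives. Coordinates came from GENCODE 29 by gene identifier. The scripts were tested on simulated data.

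FABP4, FABP5 and the gene lists were chosen with earlier results of these data known. Named genes are both members, the other listed fatty acid-binding proteins, up to 4 members per list with the highest mean and 4 with the widest range, and the 10 most and 5 least alike genes by rho, except for a listed gene that is not reported here, while single genes of the interferon, NF-kB and cell cycle lists are not given. KRT81, the HTO10 split and the division by mitochondrial share were taken up after values were seen.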

Additional observations from a re-analysis of the deposited data

Results flagged for a closer look

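Signal of both genes appeared in barcodes outside the comparisons above. The 1110 kept cells without a clear tag pair held FABP4 at 26.3 CPM and FABP5 at 823 CPM, against 22.0 and 797 CPM in cells with one, and their median depth was 17091 UMIs. The 2722 barcodes with a tag pair but over 20% mitochondrial counts held FABP4 at 11.1 CPM and FABP5 at 253 CPM. A further 814 barcodes with under 1000 genes and at most 20% mitochondrial counts, at a median of 801 UMIs, held FABP4 at 17.0 CPM (12 UMIs, 8.77 to 29.6) and FABP5 at 1012 CPM. Per 1e+06 non-mitochondrial UMIs the barcodes over 20% mitochondrial counts had 22.9 CPM of FABP4 and 523 CPM of FABP5, against 24.6 and 889 CPM in the kept cells with a tag pair.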

How the results depend on the processing

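Alternatives numbered 206, of which 189 stayed within the interval of the value reported, or within 1.5 times a count. Many of them left out 1 sample, which cannot change a ratio of highest to lowest unless that sample is an extreme. The count of 189 is therefore no measure of how firm the results are. The FABP4 ratios of upper over lower cells, whose intervals include 1, crossed 1 for the interferon list (0.953 after thinning to 5000 UMIs), NF-kB targets (0.959, and 0.953 with all UMIs) and S-phase genes (1.12 and 1.01). With at least 2000 genes and at most 10% mitochondrial counts per cell, HTO3/HTO9 kept 30 cells and 0 FABP4 UMIs, so that the FABP4 ratio became a lower bound of 8.96, the lowest share with FABP4 became 0% and the FABP5 ratio 2.08. Ranges of 2-fold were found in 2357, 495 and 427 genes with a pseudocount of 1, of 50 and with a mean of at least 100 CPM, against 1504, and ranges of 4-fold in 402, 82 and 94 genes, against 238. With a pseudocount of 50, 5 lipid genes reached 2-fold. Thinning to 5000 UMIs gave a ratio of upper over lower cells by the interferon list of 0.843 for FABP5, and for the S-phase list 7 samples (FABP4) and 3 samples (FABP5) that were higher in the lower cells, against 12 and 6. Without the top cell of each sample, added later, the variance ratio of FABP4 was 5.64. Leaving out 1 sample at a time, the FABP4 ratio ran from 55.5 to 88.5, the FABP5 ratio from 2.23 (without HTO3/HTO9) to 2.77, the rho of FABP4 with FABP5 from 0.24 to 0.40, and the rho with the interferon list from -0.65 to -0.54 for FABP4 and from -0.79 to -0.66 for FABP5. The cause of these changes was not tested beyond the cells and genes each setting removes. No paired analysis was possible because the labels give the hashtag samples no replicate numbers, and upper and lower cells were compared within each sample. With 4 to 314 FABP4 UMIs per sample, counting error limits FABP4 more than FABP5.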
